A study of Mus musculus with 6 samples.

Results

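The genes described here are 7 genes of ion transport: Atp1b1, Atp1b2 and Atp1b3, which encode beta subunits of the sodium pump, the potassium channel genes Kcne4 and Kcnj13, the cotransporter gene Slc12a2 and the chloride-proton exchanger gene Clcn3. They were taken by symbol and are 7 of the 24147 gene rows in the deposited tables. They were chosen by values of these libraries, namely their lower counts at 24 h than at 0 h, so that difference is described without a test. All 7 were among the 13956 genes that passed a filter on low counts. Slc12a2 and Clcn3 encode neither pumps nor potassium channels.

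The tissue was lens capsule with the epithelial cells still attached, from wild-type C57BL/6 mice aged 2 months whose lens fiber cells had been taken out in life through the cornea as a model of cataract surgery. It was collected 24 h after the operation (24 h, 3 libraries) or directly after it (0 h, 3 libraries). Both groups had thus been operated on. The sources used here do not say how many eyes or animals make up a library, so p-values measure only the spread between these libraries. The libraries held 8069314 to 10862573 gene counts, at which 3 counts correspond to 0.301 to 0.384 CPM, the usual unit of counts scaled to library size.

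The lens has no blood supply, and its epithelium carries most of its active ion transport. The sodium pump (Na,K-ATPase) joins a catalytic alpha subunit to a glycosylated beta subunit that brings it to the cell surface, and it exports sodium in exchange for potassium. Potassium channels let potassium leave again and set the membrane voltage, while chloride cotransporters and channels move salt and water and so set cell volume.

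Promoters of 4 of the genes are shown so that the letters before the starts of genes that stood lower in CPM in every 24 h library can be compared. RefSeq (GRCm38.p6) held promoter entries for 5 of the 7 genes. The 250 bases before the annotated start are printed for the channel genes and for 2 pump genes (the first of 2 entries for Atp1b3), 5′ to 3′ on the gene's strand. Capitals mark matches to 5 motifs searched on both strands: the E-box CACGTG, its variant CACATG, the TATA-like TATANA, the CCAAT box and the GC box GGGCGG.
Kcne4, chr1:78816661-78816910, plus strand: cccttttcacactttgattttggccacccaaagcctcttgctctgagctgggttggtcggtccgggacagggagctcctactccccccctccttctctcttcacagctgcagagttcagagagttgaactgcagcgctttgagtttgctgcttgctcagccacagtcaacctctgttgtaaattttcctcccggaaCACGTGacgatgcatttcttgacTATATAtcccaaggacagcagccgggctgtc
Kcnj13, chr1:87394730-87394979, minus strand: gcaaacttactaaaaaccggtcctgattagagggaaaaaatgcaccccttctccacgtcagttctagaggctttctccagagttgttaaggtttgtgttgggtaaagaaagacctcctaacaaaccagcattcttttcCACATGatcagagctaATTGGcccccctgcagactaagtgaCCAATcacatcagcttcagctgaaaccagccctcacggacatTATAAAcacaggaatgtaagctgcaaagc
Atp1b1, chr1:164458356-164458605, minus strand: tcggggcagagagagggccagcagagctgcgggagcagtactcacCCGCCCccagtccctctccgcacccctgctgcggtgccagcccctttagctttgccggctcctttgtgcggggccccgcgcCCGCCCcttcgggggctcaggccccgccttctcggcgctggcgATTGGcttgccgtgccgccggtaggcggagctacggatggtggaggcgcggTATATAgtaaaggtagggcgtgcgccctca
Atp1b3, chr9:96364432-96364681, minus strand: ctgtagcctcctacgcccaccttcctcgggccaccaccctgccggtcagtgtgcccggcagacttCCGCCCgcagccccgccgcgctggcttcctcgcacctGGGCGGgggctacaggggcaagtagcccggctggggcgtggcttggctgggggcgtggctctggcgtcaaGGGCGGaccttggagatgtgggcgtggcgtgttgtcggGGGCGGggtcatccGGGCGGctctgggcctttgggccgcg

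Kcne4, Kcnj13 and Atp1b1 each held a TATA-like match near the same place, at 31 to 26, 29 to 24 and 30 to 25 bases before the start, while the Atp1b3 sequence held none. TATANA stood anywhere in the 250 bases of 22.6% of 32851 promoters. Kcne4 held CACGTG at 54 to 49 bases before its start, a motif in 6.02% of promoters that the second Atp1b3 entry, not printed, also held at 221 to 216 bases, and Kcnj13 held CACATG at 112 to 107 bases, a motif in 12.3%. Atp1b3 held 5 matches to GGGCGG, Atp1b1 held 2, and 32.7% of promoters held it. CCAAT, in 33.8% of promoters, stood at 96 to 92 and 71 to 67 bases in Kcnj13 and at 81 to 77 bases in Atp1b1. Clcn3, also lower in CPM in every 24 h library but not printed, held no TATA-like match in either of its entries. Its first entry held CCAAT at 74 to 70 bases and GGGCGG at 154 to 149 bases. These are matches of letters only, and no binding was measured.

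Before the single genes, the tissue was checked against its markers. The 7 lens epithelium markers summed to 11287 to 14972 at 24 h and 18967 to 33325 CPM at 0 h, and the 8 lens fiber markers summed to 5716 to 6587 at 24 h and 14208 to 23166 CPM at 0 h. Cryab alone had a mean of 11497 CPM at 24 h and 25173 CPM at 0 h, so the epithelium sum mostly reflects that gene. A gene is said to have risen or fallen where edgeR's quasi-likelihood test gave an adjusted p under 0.05. By that test 4 of the 7 epithelium markers fell, Cryab among them, 0 rose and 3 did not pass, and all 8 fiber markers fell. Of those 3, Cdh1 had 363 ± 54.6 at 24 h and 380 ± 73.6 CPM at 0 h (SD, adjusted p = 0.833). Pdgfra had 171 ± 87.9 at 24 h and 398 ± 146 CPM at 0 h (adjusted p = 0.0613). Pax6 had 324 ± 67.5 at 24 h and 455 ± 53.7 CPM at 0 h (adjusted p = 0.0946), and it passed the test only with a replicate block. Cdh1 and Pdgfra were named after their values were seen. Of all genes tested 28.2% changed, as 2125 (15.2%) rose and 1817 (13%) fell at 24 h. For 44.7% of genes the 24 h and 0 h libraries did not overlap, and 24 h lay below 0 h for 21.8%. Among the 7 genes, 6 lay lower in CPM in every 24 h library than in any 0 h library and 1 overlapped. In TPM, a unit that corrects for gene length and was compared after seeing the data, 4 lay lower in every 24 h library and 3 overlapped, namely Atp1b1, Atp1b2 and Clcn3. The length of a gene is the same in every library, so CPM and TPM differ here only in how libraries are scaled. These counts follow in part from how the genes were chosen, and nothing is read from them. In tissue libraries like these, fewer cells of a type and less RNA per cell cannot be told apart.

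Message for each of the 3 pump beta subunits was lower on average at 24 h. Atp1b3, the beta3 gene (chromosome 9, 96332675 to 96364299, mm10), had 686, 582 and 947 CPM at 24 h, against 1699, 1735 and 2182 CPM at 0 h. The highest 24 h library lay far below the lowest 0 h library. The log2 fold change of 24 h over 0 h was -1.34 ± 0.23 (SE throughout), a level 2.54-fold lower.

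Atp1b1, the gene of beta1, the usual beta form of epithelia (chromosome 1, 164437099 to 164458355), had 194, 89.2 and 131 CPM at 24 h, against 258, 212 and 301 CPM at 0 h. The groups did not overlap in CPM, though replicate 1 at 24 h came close to replicate 2 at 0 h, and in TPM they overlapped (193 in replicate 1 at 24 h, against 190.2 in replicate 1 at 0 h). Its log2 fold change was -0.89 ± 0.27, a level 1.86-fold lower. Of its exon bases in GENCODE M21, 575 of 3081 are shared with Nme7 on the opposite strand. Reads from such stretches may not have been told apart, and Nme7 had 14.6 ± 3.08 at 24 h and 11.97 ± 2.68 CPM at 0 h (SD, n = 3 each).

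Atp1b2, the gene of beta2, a form known from glia and photoreceptors (chromosome 11, 69599750 to 69605960), had 241, 273 and 139 CPM at 24 h, against 358, 523 and 257 CPM at 0 h. It was the one gene of the 7 whose groups overlapped in CPM, since replicate 2 at 24 h exceeded replicate 3 at 0 h. The log2 fold change was -0.80 ± 0.31, a level 1.74-fold lower.

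Within each time, Atp1b2 had the same order over the libraries as the sum of 12 photoreceptor markers, which include the rod gene Gnat1. That sum was 3319, 5389 and 1199 CPM at 24 h and 4203, 6816 and 2176 CPM at 0 h, and 0 of the 12 markers changed in the test. The CPM of Atp1b2, not corrected for gene length, came to 7.25%, 5.06% and 11.6% of the photoreceptor sum at 24 h and to 8.52%, 7.67% and 11.8% at 0 h. The part of retinal RNA in the level of Atp1b2 was not tested.

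**Figure D1:**
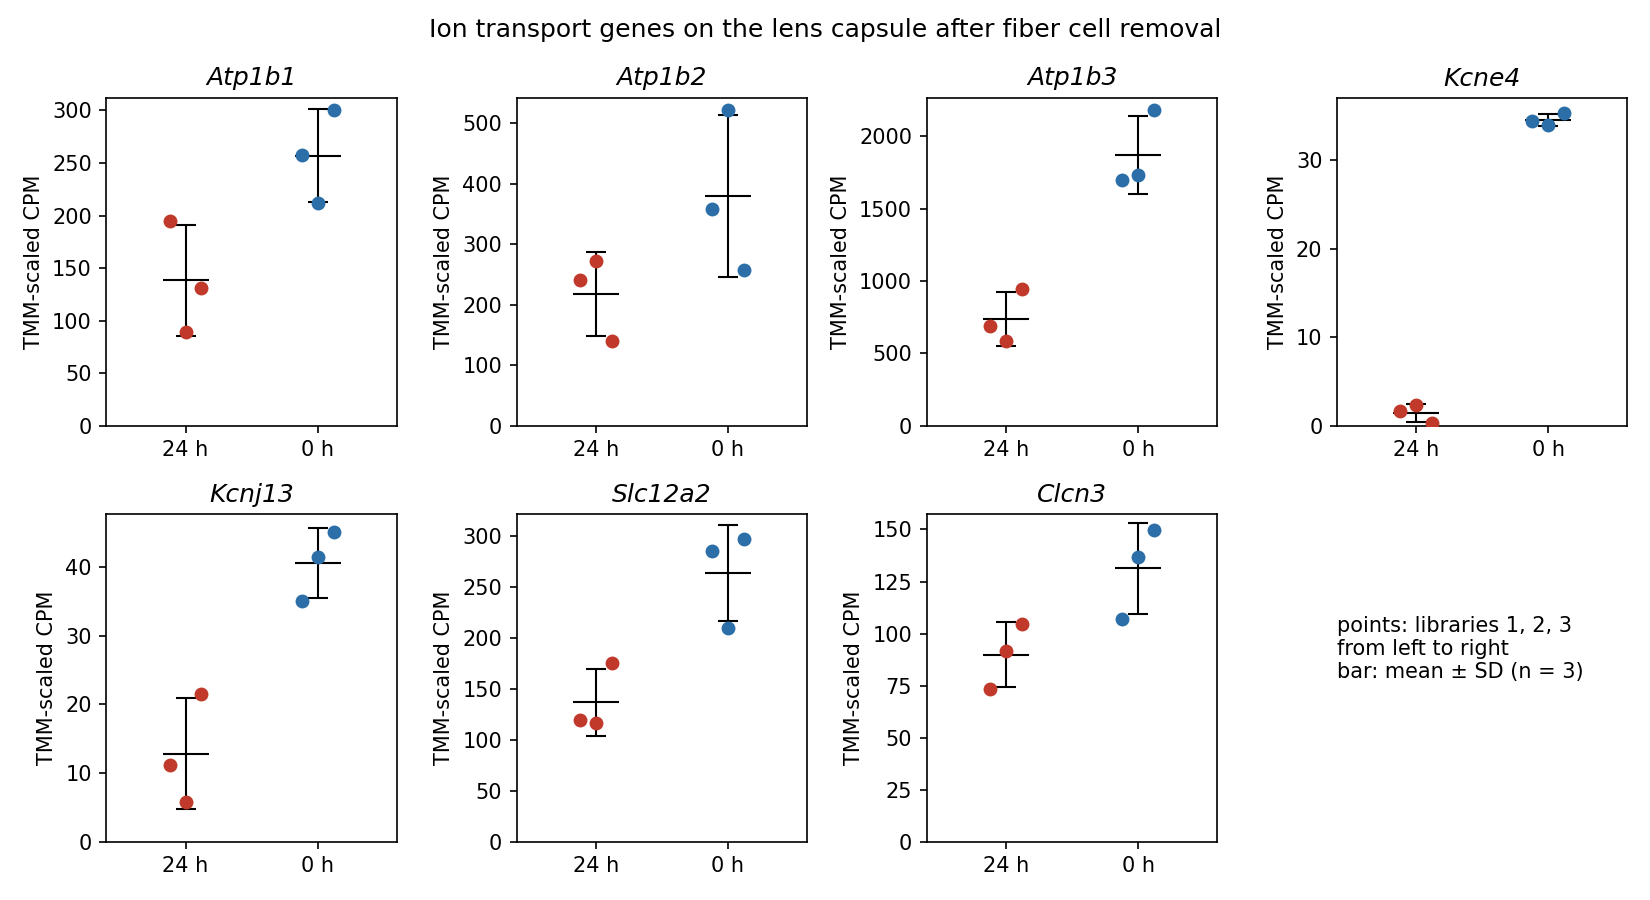
Normalised level (TMM-scaled CPM) of the 7 ion transport genes in each library, with 24 h left of 0 h in each panel, where points are libraries and bars give mean ± SD (n = 3). Kcne4 shows the widest gap for its level, at 0.317 to 2.34 CPM at 24 h against 34.0 to 35.3 CPM at 0 h, and Atp1b2 is the panel in which the groups overlap in CPM.

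To compare subunits with each other, counts were divided by gene length and given as TPM (length-corrected shares of a library). Atp1b3 made up 70.6%, 71.5% and 84.1% of the summed beta TPM at 24 h and 80.8%, 78.6% and 85.5% at 0 h, so beta3 was the main beta message in every library. Atp1b2 made up 14.6 ± 6.57% at 24 h and 10.5 ± 4.21% at 0 h, and Atp1b1 made up 10.04 ± 3.55% at 24 h and 7.93 ± 1.00% at 0 h (SD, n = 3 each). Atp1b4, the remaining beta gene, had 0 counts in all 6 libraries. The summed beta TPM was 1366, 1182 and 1535 at 24 h, against 2193, 3128 and 3086 at 0 h, and the groups did not overlap. This follows in part from how Atp1b1, Atp1b2 and Atp1b3 were chosen.

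**Figure D2:**
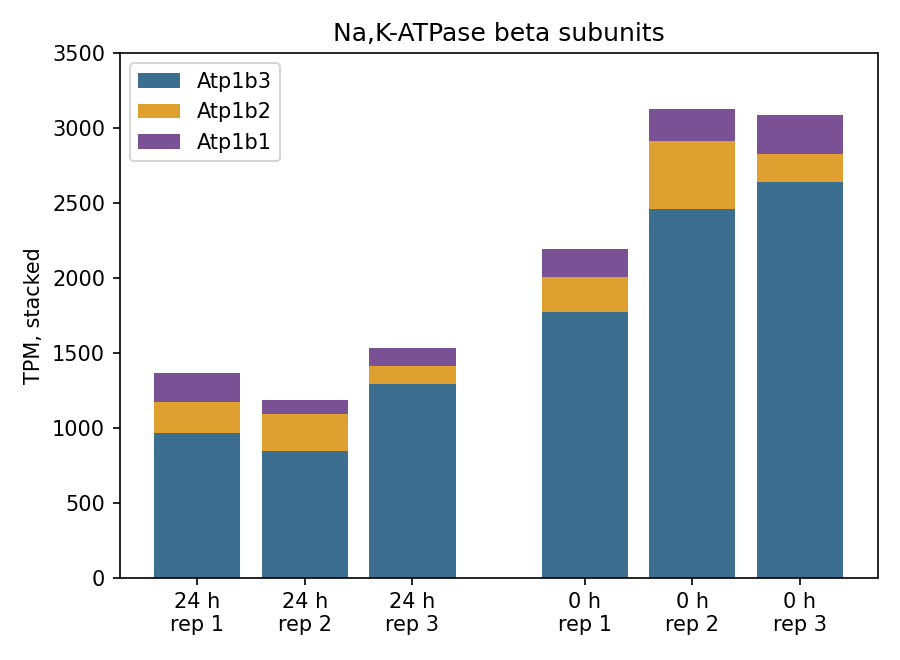
Stacked TPM (linear axis from 0) of the sodium pump beta subunit genes in each library, 24 h left of 0 h. The summed beta TPM reaches 1182 to 1535 at 24 h and 2193 to 3128 at 0 h, and Atp1b3 is the tallest part of every bar.

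The pump's small partner proteins moved in both directions. The list of other pump subunits, FXYD and NKAIN genes held 19 genes, of which 7 were tested, 2 rose and 2 fell (median log2 fold change 0.06, against -0.03 over all genes tested). Fxyd5, whose product dysadherin binds the pump and weakens cell adhesion, rose to 37.5, 65.2 and 62.1 CPM at 24 h, against 0.401, 0.902 and 0.732 CPM at 0 h (log2 fold change 6.32 ± 0.35, adjusted p = 2.39e-05). It had only 4, 9 and 6 counts at 0 h, so it passed the filter only through 24 h and could be called only as risen. Nkain1, which encodes a membrane protein that binds beta1, rose to 63.7, 78.8 and 48.7 CPM at 24 h, against 3.21, 3.51 and 2.07 CPM at 0 h (log2 fold change 4.42 ± 0.27, adjusted p = 2.84e-05). Fxyd1, which encodes the pump regulator phospholemman, fell to 38.4 ± 4.14 CPM at 24 h, against 66.3 ± 12.4 CPM at 0 h (log2 fold change -0.79 ± 0.17, adjusted p = 0.00973). Against a 1.5-fold change 0 genes of the list fell. Fxyd1 was named after its values were seen.

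Kcne4 showed the largest fold difference of the 7 genes and stood at place 4 from the lowest of the 13956 log2 fold changes. It encodes a single-pass subunit that joins pore-forming potassium channels such as KCNQ1 and reduces their current (chromosome 1, 78816949 to 78820025). It had 13, 22 and 3 counts at 24 h, against 343, 339 and 289 counts at 0 h. In normalised units it had 1.66, 2.34 and 0.317 CPM at 24 h, against 34.4, 34.0 and 35.3 CPM at 0 h. The 0 h libraries lay close together, while replicate 3 at 24 h stood at 3 counts, with an exact 95% Poisson interval of 0.619 to 8.77 counts that covers counting error only. The log2 fold change was -4.58 ± 0.46, a level 23.9-fold lower, and it was -5.17 without replicate 2 at 24 h.

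Other genes of these channels were tested for the same contrast. Of 9 listed KCNE and KCNQ genes 6 were tested, 1 rose and 1 fell (median log2 fold change -1.09). Of all genes tested 15.2% rose and 13% fell. The 6 genes had low means, 0.445 to 5.16 CPM over both times, so that median is imprecise. Kcne1, which slows the KCNQ1 current of heart and inner ear, fell to 0.384, 0.212 and 0.740 CPM at 24 h, against 3.91, 3.51 and 8.05 CPM at 0 h (log2 fold change -3.48 ± 0.61, adjusted p = 0.00383). It had only 3, 2 and 7 counts at 24 h, so it passed the filter only through 0 h and could be called only as fallen. Kcnq5, a pore subunit, rose to 6.14, 3.08 and 3.17 CPM at 24 h, against 1.10, 1.20 and 1.95 CPM at 0 h (log2 fold change 1.54 ± 0.48, adjusted p = 0.0439), but that call was lost under 9 of 13 alternatives (adjusted p 0.0223 to 0.153 over the alternatives), among them each library left out in turn except replicate 3 at 24 h. The subunit gene Kcne2 had 0.937 ± 1.07 at 24 h and 2.78 ± 2.202 CPM at 0 h (adjusted p = 0.227). Kcnq1, named after its values were seen, had 0.496 ± 0.246 at 24 h and 0.649 ± 0.354 CPM at 0 h and did not pass the filter.

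Kcnj13 encodes Kir7.1, an inward rectifier of the retinal pigment epithelium and other ion-transporting epithelia (chromosome 1, 87386284 to 87394729). It had 11.1, 5.84 and 21.6 CPM at 24 h, against 35.0, 41.5 and 45.02 CPM at 0 h. The groups did not overlap, and replicate 3 was the highest library at either time. The log2 fold change was -1.65 ± 0.39, a level 3.14-fold lower, and it was -2.26 without replicate 3 at 24 h. Of its exon bases 623 of 1270 are shared with Gigyf2 on the opposite strand, so reads of Gigyf2 counted for Kcnj13 cannot be told apart where strand was not used. Per length Gigyf2 had 33.7 ± 4.61 TPM at 24 h and 29.4 ± 4.94 TPM at 0 h, and Kcnj13 had 24.2 ± 14.4 TPM at 24 h and 67.7 ± 16.0 TPM at 0 h (SD, n = 3 each). Gigyf2 did not pass the test (75.0 ± 8.08 at 24 h and 75.2 ± 2.16 CPM at 0 h, adjusted p = 0.983).

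Kcnj13 was set beside markers of tissues next to the lens. Of 10 markers of the retinal pigment epithelium 6 fell and 2 rose, and their sum was 113 to 138 at 24 h and 179 to 302 CPM at 0 h. Its members moved in both directions. Rpe65, the isomerase of the visual cycle, fell to 1.79, 0.956 and 0.317 CPM at 24 h, against 13.2, 22.2 and 15.01 CPM at 0 h (adjusted p = 0.000741). Rgr, which encodes an opsin of this epithelium, fell to 1.96 ± 0.241 CPM at 24 h, against 58.8 ± 26.2 CPM at 0 h, and Lrat, which makes retinyl esters, fell to 0.191 ± 0.168 CPM at 24 h, against 11.2 ± 4.23 CPM at 0 h. Stra6, the receptor for retinol-binding protein, rose to 48.5 ± 13.1 CPM at 24 h, against 14.5 ± 2.30 CPM at 0 h (adjusted p = 0.00104), and Rdh5, a retinol dehydrogenase named after its values were seen, rose to 42.6 ± 14.8 CPM at 24 h, against 13.4 ± 3.23 CPM at 0 h (adjusted p = 0.00369). Rlbp1, which encodes a retinal-binding protein, had 23.9 ± 14.2 at 24 h and 43.0 ± 18.6 CPM at 0 h (adjusted p = 0.234, adjusted p 0.00812 to 0.608 over the alternatives), and it passed the test only with a replicate block.

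Within each time, Kcnj13 and Atp1b3 each had the same order as the sum of 7 ciliary epithelium markers, which was 627, 551 and 916 CPM at 24 h and 1133, 1152 and 1424 CPM at 0 h. The sum and both genes also lay lower in every 24 h library, which for the genes follows in part from how they were chosen. Of those markers 5 fell and 0 rose. They include the water channel genes Aqp1, at 419.8 ± 134 at 24 h and 529.5 ± 75.3 CPM at 0 h (adjusted p = 0.333), which passed the test without replicate 3 at 24 h (adjusted p 0.0494 to 1.00 over the alternatives), and Aqp4, which fell to 109 ± 50.7 CPM at 24 h, against 301 ± 43.1 CPM at 0 h (adjusted p = 0.00764). Aqp1 was the largest part of the ciliary sum in every library, and Aqp4 is also among the glial markers. In all, 84 pairs of a gene and 1 of 12 marker lists were compared by their order, and 5 had the same order within both times. Beside the 3 pairs named, these were Atp1b3 and Kcnj13 with macrophage markers (74.6 to 148 at 24 h and 71.4 to 167 CPM at 0 h, 1 of 8 tested rose and 3 fell). The part of other tissues in these levels was not tested.

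**Figure D3:**
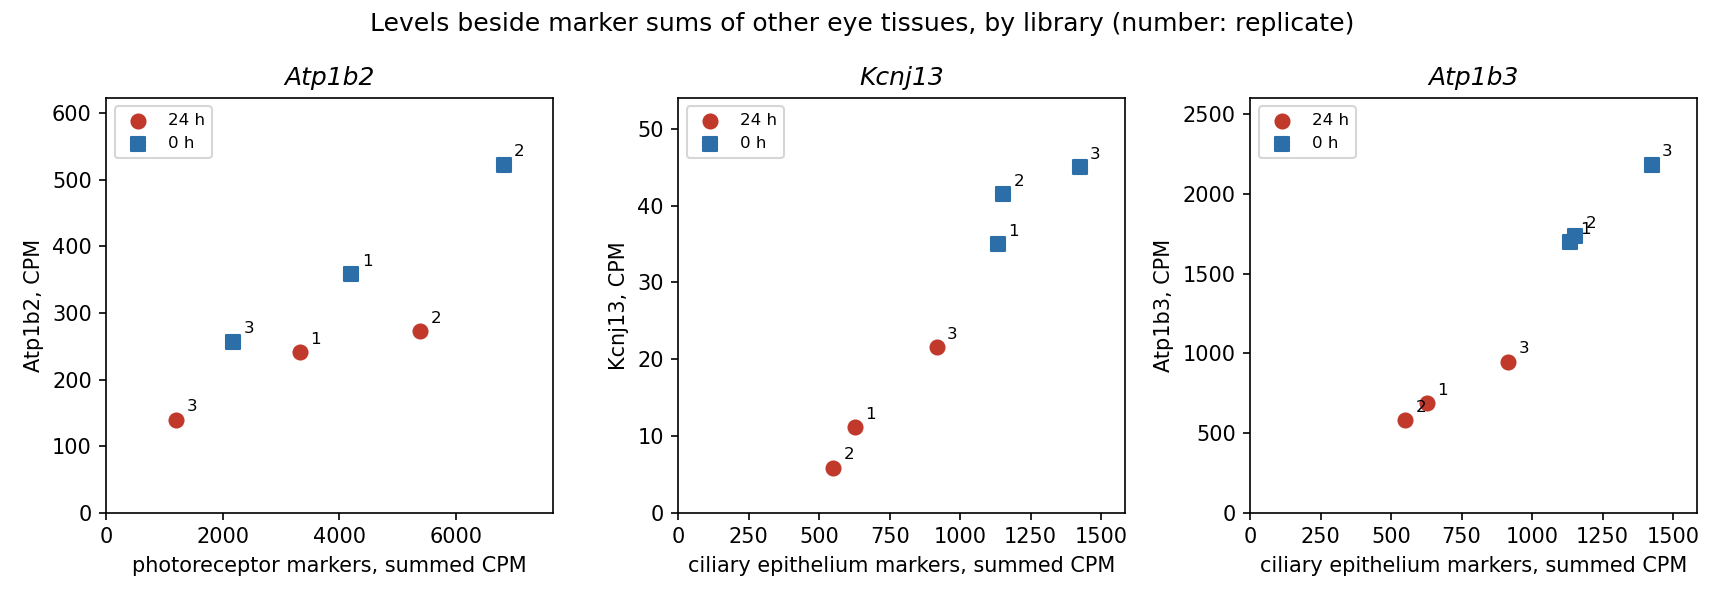
CPM of Atp1b2, Kcnj13 and Atp1b3 (vertical axes) against the summed CPM of photoreceptor or ciliary epithelium markers (horizontal axes), 1 point a library, for 24 h and 0 h. Atp1b2 is highest at each time in replicate 2, where the photoreceptor sum is highest, and Kcnj13 and Atp1b3 follow the order of the ciliary sum within each time.

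The remaining marker lists are given by their sums and calls. Neutrophil markers summed to 88.4 to 154 at 24 h and 7.01 to 11.9 CPM at 0 h, and all 6 tested rose. Of these, S100a8, S100a9 and Retnlg had 0 to 2 counts in each 0 h library. They passed the filter only through 24 h and so could be called only as risen. In other lists too, genes near 0 at one time passed the filter only through the other. Pigment cell markers summed to 121 to 1209 at 24 h and 202 to 274 CPM at 0 h, with 4 of 7 tested risen and 1 fallen. Glial markers (Mueller glia and astrocytes) summed to 1569.9 to 2464 at 24 h and 2097 to 2421 CPM at 0 h, with 1 of 6 risen and 2 fallen, and corneal markers to 375 to 743 at 24 h and 783 to 1160.1 CPM at 0 h, with 3 of 6 risen and 2 fallen. Endothelial and smooth muscle markers summed to 22.7 to 90.3 at 24 h and 12.7 to 57.3 CPM at 0 h, with 3 of 5 tested risen. Erythrocyte markers summed to 3.07 to 8.82 at 24 h and 0.601 to 1.30 CPM at 0 h, with 3 of 5 at 0 in all libraries and the 1 tested risen.

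Other inward rectifiers also fell or did not pass the test. Of 16 listed genes 11 were tested, 0 rose and 3 fell (median log2 fold change -0.56). Kcnj12, a strong rectifier of excitable cells, fell to 153, 194 and 172 CPM at 24 h, against 331, 234 and 335 CPM at 0 h (log2 fold change -0.80 ± 0.18, adjusted p = 0.0127), a call lost against a 1.5-fold change, without replicate 3 at 0 h and without replicate 1 at 24 h (adjusted p 0.000447 to 0.235 over the alternatives). Kcnj3, a channel opened by G proteins, fell to 3.44 ± 1.03 CPM at 24 h, against 11.9 ± 1.48 CPM at 0 h (log2 fold change -1.80 ± 0.30, adjusted p = 0.00318). Of its exon bases in GENCODE M21, 1621 of 5215 are shared with Gm26794 on the opposite strand, a gene not counted in these data. Abcc9, the sulfonylurea receptor of some ATP-sensitive channels, fell to 4.47 ± 1.52 CPM at 24 h, against 16.5 ± 6.58 CPM at 0 h (log2 fold change -1.88 ± 0.39, adjusted p = 0.00799). Kcnj14 had 30.3 ± 20.1 at 24 h and 44.7 ± 12.9 CPM at 0 h (adjusted p = 0.365), and it passed the test without replicate 2 at 24 h and with a replicate block (adjusted p 0.0226 to 0.862 over the alternatives).

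Among 62 other potassium channel genes, 35 were tested, 2 rose and 9 fell (median log2 fold change -0.75). Kcnh2, the gene of the hERG channel, fell to 33.4, 17.3 and 22.1 CPM at 24 h, against 95.9, 70.0 and 95.2 CPM at 0 h (log2 fold change -1.85 ± 0.25, adjusted p = 0.00106). Kcng4, a modifier subunit, fell to 8.89 ± 1.29 CPM at 24 h, against 22.2 ± 1.45 CPM at 0 h (log2 fold change -1.32 ± 0.20, adjusted p = 0.00174). Kcnk1, a leak channel, fell to 35.7 ± 4.07 CPM at 24 h, against 64.6 ± 10.8 CPM at 0 h (log2 fold change -0.85 ± 0.17, adjusted p = 0.00598), a call lost against a 1.5-fold change (adjusted p 0.000430 to 0.129 over the alternatives). Kcnh1, an ether-a-go-go channel, fell to 129.5 ± 46.1 CPM at 24 h, against 280.4 ± 44.4 CPM at 0 h (log2 fold change -1.11 ± 0.26, adjusted p = 0.0134), a call lost against a 1.5-fold change and without replicate 1 or replicate 3 at 0 h (adjusted p 0.000319 to 0.0832 over the alternatives). The 2 that rose, Kcnd3 (log2 fold change 0.93 ± 0.22, adjusted p = 0.0148) and Kcnb2 (log2 fold change 1.33 ± 0.39, adjusted p = 0.0331), encode voltage-gated pore subunits and were named after their values were seen. Against a 1.5-fold change 0 genes of the list rose and 5 fell.

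Slc12a2 encodes NKCC1, which carries sodium, potassium and chloride into the cell together (chromosome 18, 57878678 to 57946821). It had 119, 116 and 175 CPM at 24 h, against 285, 210.0 and 297 CPM at 0 h. The groups did not overlap, and every 24 h library lay below the lowest 0 h library. Its log2 fold change was -0.95 ± 0.21, a level 1.93-fold lower.

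The list of other cation-chloride cotransporters and the kinases that control them held 18 genes, of which 15 were tested, 1 rose and 4 fell (median log2 fold change -0.19). Slc12a4, the gene of KCC1, which carries potassium and chloride out of the cell, rose to 94.1, 90.5 and 79.6 CPM at 24 h, against 53.8, 47.3 and 52.8 CPM at 0 h (log2 fold change 0.78 ± 0.13, adjusted p = 0.00291), a call lost against a 1.5-fold change (adjusted p 1.47e-05 to 0.150 over the alternatives). Wnk4, a kinase upstream of these cotransporters, fell to 19.7, 11.4 and 11.9 CPM at 24 h, against 33.6, 54.3 and 49.5 CPM at 0 h (log2 fold change -1.68 ± 0.27, adjusted p = 0.00238). Among the others that fell were the kinase genes Wnk2 (log2 fold change -0.75 ± 0.16, adjusted p = 0.00855) and Wnk3 (log2 fold change -0.62 ± 0.19, adjusted p = 0.0382), named after their values were seen. Against a 1.5-fold change 1 gene of the list fell. Wnk1, the most abundant kinase of the list per length, had 556 ± 23.4 at 24 h and 593 ± 26.4 CPM at 0 h (adjusted p = 0.675). Cul3, part of a ubiquitin ligase that degrades WNK kinases, had 127 ± 4.15 at 24 h and 135 ± 2.27 CPM at 0 h (adjusted p = 0.614).

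Clcn3 encodes ClC-3, which exchanges chloride for protons in endosomal membranes (chromosome 8, 60910389 to 60983311), and had the smallest fold difference of the 7 genes. It had 73.4, 91.4 and 104 CPM at 24 h, against 107, 137 and 149.96 CPM at 0 h. The groups did not overlap in CPM, but replicate 3 at 24 h and replicate 1 at 0 h lay next to each other. In TPM they overlapped, with 43.2 in replicate 3 at 24 h, against 33.9 in replicate 1 at 0 h. For Clcn3 the log2 fold change was -0.55 ± 0.18, a level 1.46-fold lower.

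Among other chloride channel genes more rose than fell. Of 27 listed genes 23 were tested, 8 rose and 2 fell (median log2 fold change 0.15). Clic4, an intracellular channel-like protein, rose to 164, 161 and 122 CPM at 24 h, against 17.3, 18.9 and 11.6 CPM at 0 h (log2 fold change 3.22 ± 0.22, adjusted p = 5.08e-05), and its relative Clic1 rose to 164 ± 18.8 CPM at 24 h, against 74.7 ± 17.0 CPM at 0 h (log2 fold change 1.14 ± 0.19, adjusted p = 0.00322). Ano6, a calcium-activated scramblase and channel, rose to 167 ± 24.7 CPM at 24 h, against 81.7 ± 14.4 CPM at 0 h (log2 fold change 1.04 ± 0.18, adjusted p = 0.00350), and its relative Ano1 also rose (log2 fold change 1.36 ± 0.38, adjusted p = 0.0295). The LRRC8 genes encode the volume-regulated anion channel. Lrrc8c rose to 15.5, 23.8 and 22.7 CPM at 24 h, against 3.11, 1.70 and 1.22 CPM at 0 h (log2 fold change 3.34 ± 0.37, adjusted p = 0.000441). Lrrc8a, the obligatory subunit, rose to 68.0 ± 4.36 CPM at 24 h, against 45.2 ± 1.03 CPM at 0 h (log2 fold change 0.59 ± 0.12, adjusted p = 0.00760), Lrrc8b rose to 28.4 ± 4.94 CPM at 24 h, against 10.1 ± 1.85 CPM at 0 h (log2 fold change 1.49 ± 0.22, adjusted p = 0.00158) and Lrrc8d rose to 43.1 ± 3.82 CPM at 24 h, against 25.3 ± 4.12 CPM at 0 h (log2 fold change 0.77 ± 0.17, adjusted p = 0.00993). Lrrc8e had 4.57 ± 1.77 at 24 h and 2.47 ± 1.04 CPM at 0 h and did not pass the test (adjusted p = 0.216).

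The 2 chloride channel genes that fell were Best2 and Clic6. Best2, a bestrophin that is also among the ciliary markers, fell to 15.3, 5.63 and 14.4 CPM at 24 h, against 58.9, 98.7 and 87.7 CPM at 0 h (log2 fold change -2.80 ± 0.36, adjusted p = 0.000855). Clic6 fell to 9.10 ± 4.38 CPM at 24 h, against 28.7 ± 3.02 CPM at 0 h (log2 fold change -1.66 ± 0.32, adjusted p = 0.00555). Best2, Clic6, Ano1 and the LRRC8 genes other than Lrrc8c were named after their values were seen. Against a 1.5-fold change 5 genes of the list rose, in place of 8.

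Carriers that exchange sodium for protons or move bicarbonate were listed as 17 genes, of which 14 were tested, 1 rose and 3 fell (median log2 fold change -0.14). Slc4a7, a sodium-bicarbonate cotransporter, rose to 211, 234 and 164 CPM at 24 h, against 39.9, 55.9 and 42.9 CPM at 0 h (log2 fold change 2.14 ± 0.19, adjusted p = 0.000186). Slc9a9, an endosomal exchanger, fell to 2.31 ± 0.387 CPM at 24 h, against 12.4 ± 2.15 CPM at 0 h (log2 fold change -2.42 ± 0.30, adjusted p = 0.000728). Slc4a5, a bicarbonate cotransporter, fell to 143, 27.1 and 66.9 CPM at 24 h, against 174, 304 and 306 CPM at 0 h (log2 fold change -1.73 ± 0.51, adjusted p = 0.0354), a call lost under 5 alternatives, against a 1.5-fold change and without each 0 h library or replicate 3 at 24 h (adjusted p 0.00669 to 0.104 over the alternatives). The chloride-bicarbonate exchanger gene Slc4a2 had 86.4 ± 7.11 at 24 h and 69.3 ± 6.35 CPM at 0 h (adjusted p = 0.109), and 1141 of its 8322 exon bases are shared with Fastk on the opposite strand.

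Among 8 genes of the response to hypertonic stress, 7 were tested, 0 rose and 2 fell (median log2 fold change -0.24). Slc6a6, the taurine transporter, fell to 1951, 1499.9 and 2668 CPM at 24 h, against 5622, 6094 and 6084 CPM at 0 h (log2 fold change -1.54 ± 0.25, adjusted p = 0.00287). Nfat5, the transcription factor of this response, fell to 275 ± 18.7 CPM at 24 h, against 509.5 ± 68.4 CPM at 0 h (log2 fold change -0.89 ± 0.16, adjusted p = 0.00433), a call lost against a 1.5-fold change (adjusted p 9.08e-07 to 0.0888 over the alternatives). Sgk1, a kinase that acts on many ion carriers, had 178 ± 27.8 at 24 h and 208 ± 95.5 CPM at 0 h (adjusted p = 0.657).

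Over the 8 transport lists together, 176 genes were listed and 118 tested, of which 15 rose (12.7%), 26 fell (22%) and 77 did not pass the test. The shares in the whole table were 15.2% and 13%. Genes near 0 at one time passed the filter only through the other time, so these shares describe the genes that could be tested.

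**Figure D4:**
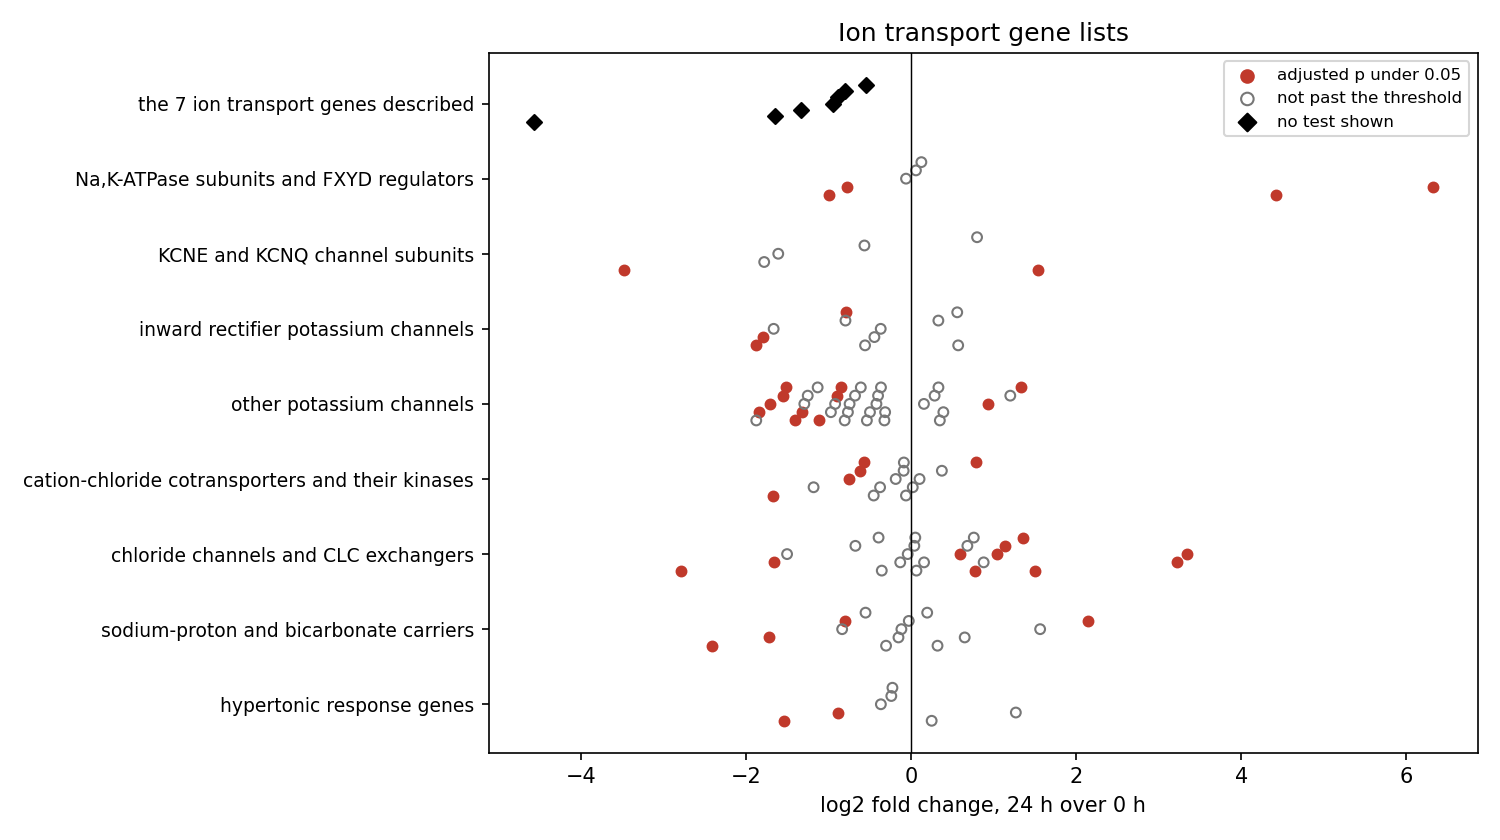
Log2 fold change of 24 h over 0 h for the 7 genes described (diamonds) and for each tested gene of 8 transport lists, 1 row a list, filled where the adjusted p was under 0.05. The lists run from 0 genes risen and 3 fallen among inward rectifiers to 8 risen and 2 fallen among chloride channels.

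Per length, the order of the 7 genes was Atp1b3, Atp1b2, Atp1b1 and Slc12a2 at both times. Atp1b3 had 1034 ± 231 TPM at 24 h and 2289 ± 457 TPM at 0 h, far above the rest. Atp1b2 had 191 ± 65.7 TPM at 24 h and 294 ± 144 TPM at 0 h, and Atp1b1 had 137 ± 51.5 TPM at 24 h and 219.8 ± 33.9 TPM at 0 h, and the libraries of these neighbours overlapped at both times. Slc12a2 had 53.8 ± 11.4 TPM at 24 h and 89.2 ± 9.89 TPM at 0 h. Kcnj13, Clcn3 and Kcne4 followed at 0 h and Clcn3, Kcnj13 and Kcne4 at 24 h. Clcn3 had 38.3 ± 6.21 TPM at 24 h and 49.2 ± 13.4 TPM at 0 h, and its libraries overlapped those of Kcnj13 at both times and those of Kcne4 at 0 h only. Kcne4 had 1.53 ± 1.12 TPM at 24 h and 31.4 ± 4.57 TPM at 0 h (SD, n = 3 each).

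For each of the 7 genes, the genes most alike in log2 CPM over the 6 libraries were found by Pearson's r. The 6 points fall at 2 times, and both genes of a pair come from the same libraries, so these values only rank likeness. Those of Atp1b1 were Nudt14 (0.9983), Zbtb14 (0.9927) and 2010320M18Rik (0.9925). Those of Atp1b2 were Ccdc117 (0.9928), Ezh1 (0.9918) and Rere (0.9909), and those of Atp1b3 were Trp53inp1 (0.9989), Gm9962 (0.9981) and Daam2 (0.9979). Kcne4 was followed most closely by St6galnac5 (0.9986), Zfp763 (0.9984) and Irak2 (0.9968), and Kcnj13 by Tenm4 (0.9994), F11r (0.9979) and Aldh7a1 (0.9965). Slc12a2 was nearest to Prkg1 (0.9997), Crim1 (0.9993) and Pcyox1 (0.9985), and Clcn3 to Fgf1 (0.9964), Prx (0.9950) and Zfp748 (0.9921). Genes above 0.95 numbered 58 for Atp1b2, 78 for Clcn3, 136 for Atp1b1, 263 for Kcne4, 312 for Kcnj13, 383 for Slc12a2 and 602 for Atp1b3. As examples, Tenm4, nearest to Kcnj13, had 114 ± 45.05 at 24 h and 232 ± 20.7 CPM at 0 h, and Crim1, near to Slc12a2, had 1224 ± 342 at 24 h and 2634 ± 604 CPM at 0 h (SD, n = 3 each).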

How the data were processed

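RNA sequencing of 6 libraries was used. Per the submitters' processing notes, the reads were handled with TopHat2 2.1.0, HTSeq 0.6.1p1, SAMtools 1.4, bedtools 2.17, Trim Galore 0.4.4, edgeR 3.16.5 and FastQC on the mm10 build. The sources used here give neither the annotation nor the strand setting of the counting, and the labels name both an unstranded and a stranded kit. Per the file headers, the deposited tables hold whole-number counts of reads with gene lengths, and also the authors' RPKM values, which equal count over length and library sum and entered no test. Counts of genes that overlap on opposite strands may therefore be mixed.

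Groups came from the labels. The default filterByExpr filter kept 13956 of 24147 genes (99.82% or more of the counts of every library), libraries were scaled by TMM, and 24 h was compared with 0 h by the two-sided quasi-likelihood test of edgeR 4.0.16 (R 4.3.3) with Benjamini-Hochberg adjustment over all genes tested. SE is approximate, computed as absolute log2 fold change over the root of F. TPM was computed from the deposited counts and lengths. The steps were tested on simulated counts. No pair of libraries agreed within sampling noise (chi-square per gene 25.9 to 68.5 within groups). Pearson correlations between libraries, on log2 CPM with a small fixed offset, were 0.9685 to 0.9713 within 0 h and 0.9458 to 0.9578 within 24 h. The likeness between genes and the deviations from group means used log2 CPM with prior count 2.

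The members and gene lists were chosen with earlier results of these data known. Genes named in the transport lists are the 2 tested with the highest TPM and the 2 with the lowest p in each list. Some genes of these lists are not reported here. Alternatives were DESeq2 1.42.0, limma 3.58.1 (voom), other scalings, no filter, a test against a 1.5-fold change, a replicate block and each library left out. The precision of low counts is limited by depth, and intervals treat PCR copies as separate molecules.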

Additional observations from a re-analysis of the deposited data

How the results depend on the processing

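The 7 genes were chosen for lower counts at 24 h in these libraries, so their direction was in part fixed beforehand. Each of the 7 genes kept a negative log2 fold change under all 12 alternatives computed for it. With single libraries left out these ran from -1.18 to -0.66 for Atp1b1, -0.99 to -0.50 for Atp1b2, -1.56 to -1.19 for Atp1b3, -5.17 to -4.09 for Kcne4, -2.26 to -1.30 for Kcnj13, -1.16 to -0.82 for Slc12a2 and -0.67 to -0.39 for Clcn3. Scaling moved the median of all genes from -0.03 to at most 0.06 (library totals, 2323 genes risen and 1441 fallen).

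Against a 1.5-fold change 1060 genes rose and 629 fell. By list, that test left 0 fallen pump partners, 0 risen KCNE and KCNQ genes, 0 risen and 5 fallen other potassium channels, 0 risen and 1 fallen cotransporters and kinases, 5 risen chloride channels, 1 fallen bicarbonate or proton carrier and 1 fallen hypertonic response gene. Without the filter, 0 KCNE and KCNQ genes, 2 cotransporters and kinases and 1 hypertonic response gene rose. With limma-voom 0 KCNE and KCNQ genes and 1 other potassium channel rose. With DESeq2 5 inward rectifiers fell and 1 hypertonic response gene rose.

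With single libraries left out, 1551 to 1897 genes rose and 1041 to 1648 fell, the lowest without replicate 3 at 0 h. The counts ran from 1 to 2 for fallen pump partners (1 without replicate 3 at 0 h), 0 to 1 for risen KCNE and KCNQ genes, 1 to 2 for risen other potassium channels, 1 to 2 for risen cotransporters and kinases, 2 to 4 for fallen chloride channels (4 without replicate 1 at 24 h) and 0 to 1 for risen hypertonic response genes (1 without replicate 3 at 24 h). The causes were not tested.

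The labels number replicates at both times but do not say that a number marks a shared animal or day. Same-numbered libraries correlated at 0.0866, 0.215 and 0.397 in their deviations from the group means, and replicate 1 at 24 h correlated best with replicate 2 at 0 h (0.172). With a replicate block 2315 genes rose and 2174 fell, 0 KCNE and KCNQ genes rose, 6 inward rectifiers fell and 1 hypertonic response gene rose.

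At 24 h the level of Kcne4 is limited by depth, at 3 to 22 counts a library.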
